A study of Mus musculus with 21 samples.

Results

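A group of 7 genes in mouse embryoid bodies was followed, because each stood near 0 in the parental line and far higher in all 4 lines that carried a TWIST1 dimer. The 7 members are Lax1, Alb, Slc8a3, Tmem132c, Cygb, Muc16 and Rftn2, out of 48321 gene symbols listed per sample. They were picked by symbol as large rises in every dimer line over the parental line, so the dimer and parental values below are the values that chose them. Embryoid bodies are aggregates of differentiating embryonic stem cells, and these came from A2loxCre cells (strain label C57BL/6) on day 3 of differentiation. A2loxCre cells accept a coding sequence behind a doxycycline-inducible promoter. The 21 RNA-seq samples formed 7 groups of 3. The parental group carried no TWIST1 insert and received doxycycline. The uninduced monomer group carried an integrated single TWIST1 coding sequence and received no doxycycline. The remaining 5 groups received doxycycline, with protein expression induced 16 h before collection, and carried the TWIST1 monomer, the TWIST1-TWIST1 homodimer, or a heterodimer in which the partner was TCF3, TCF4 or TCF12. The labels do not say whether a line is 1 clone or whether the samples of a group are separate cultures, so p-values measure the spread between these samples only.

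TWIST1, of the basic helix-loop-helix class, controls transcription in mesoderm and neural crest. On DNA it acts in pairs, either with a second TWIST1 or with an E-protein, the class of the 3 partners used here, and these pairs read the E-box, CANNTG. A construct built as a dimer brings its partner along, whereas a monomer can pair with whatever partner the cell supplies. The 7 genes have unlike roles. Lax1 encodes a membrane adaptor of lymphocytes that dampens antigen receptor signalling. Rftn2 encodes a raftlin, a protein of membrane lipid rafts. Slc8a3 encodes a sodium-calcium exchanger that removes calcium from the cell. Tmem132c encodes a single-pass membrane protein of the TMEM132 family. Muc16 encodes a very large cell surface mucin, known as the tumour antigen CA125. Alb encodes albumin, the main plasma protein secreted by liver. Cygb encodes cytoglobin, a haem protein of fibroblasts and stellate cells.

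Promoter sequences were taken from RefSeq (build GRCm38.p6), which had an entry for 5 of the 7 genes, all but Cygb and Rftn2. They are shown because the integrated factor reads E-boxes. Each line gives the 250 bases before the annotated start, 5′ to 3′ on the strand of the gene, and capitals mark every CANNTG match. For Lax1, which has a pair of annotated starts in the table, the window of the upstream start is shown.

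Lax1 (chr1:133690109-133690358, minus strand): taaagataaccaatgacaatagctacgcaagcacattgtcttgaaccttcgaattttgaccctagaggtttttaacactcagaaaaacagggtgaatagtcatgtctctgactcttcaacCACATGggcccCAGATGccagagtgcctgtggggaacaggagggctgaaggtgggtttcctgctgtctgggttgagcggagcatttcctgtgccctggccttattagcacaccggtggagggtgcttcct
Alb (chr5:90460620-90460869, plus strand): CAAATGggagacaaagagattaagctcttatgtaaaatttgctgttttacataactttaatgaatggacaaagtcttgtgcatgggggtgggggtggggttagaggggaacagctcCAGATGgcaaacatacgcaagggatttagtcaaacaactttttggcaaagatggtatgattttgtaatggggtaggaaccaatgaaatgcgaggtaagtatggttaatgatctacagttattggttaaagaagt
Slc8a3 (chr12:81333181-81333430, minus strand): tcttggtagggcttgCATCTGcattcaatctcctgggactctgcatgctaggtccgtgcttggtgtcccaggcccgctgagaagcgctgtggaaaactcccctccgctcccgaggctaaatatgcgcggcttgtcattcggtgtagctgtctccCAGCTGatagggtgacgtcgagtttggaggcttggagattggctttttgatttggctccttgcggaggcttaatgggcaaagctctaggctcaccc
Tmem132c (chr5:127241576-127241825, plus strand): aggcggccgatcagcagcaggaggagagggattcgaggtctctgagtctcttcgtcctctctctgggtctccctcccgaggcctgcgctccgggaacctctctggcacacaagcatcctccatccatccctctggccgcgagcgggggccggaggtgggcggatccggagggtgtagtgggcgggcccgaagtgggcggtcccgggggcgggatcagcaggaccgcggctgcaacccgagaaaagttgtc
Muc16 (chr9:18674604-18674853, minus strand): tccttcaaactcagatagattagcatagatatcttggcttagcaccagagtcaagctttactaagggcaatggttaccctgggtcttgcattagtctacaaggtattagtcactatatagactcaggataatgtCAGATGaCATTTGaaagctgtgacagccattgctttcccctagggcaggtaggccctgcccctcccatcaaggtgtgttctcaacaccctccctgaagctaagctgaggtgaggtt

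Motifs were searched on both strands in the full RefSeq windows of 300 bases (250 before the start and 50 after it). At least 1 E-box CANNTG was found in 4 of the 5 genes, against 72.3% of 32851 promoters of the same length. The version CATCTG or its reverse complement CAGATG was in the same 4 genes, Lax1, Alb, Slc8a3 and Muc16, against 17.2% of all promoters. Counted from the start, it began at position -119 in Lax1 (shown window), -134 in Alb, -235 in Slc8a3 and -116 in Muc16. CAGCTG was found in Slc8a3 only, at -96, against 16.3% of all promoters. Neither CATATG (3.91% of all) nor CACCTG or CAGGTG (20.2% of all) occurred in the 5 genes. Lax1 alone held a pair of E-boxes with 5 bases between them, CACATG at -130 and CAGATG at -119, an arrangement found in 0.767% of all promoters. Tmem132c held no E-box in this window. These matches describe the letters of the windows, and no binding was measured here.

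Total counts per sample ranged from 6648842 to 15999693, with 18474 to 20883 genes detected, and 3 counts in a library corresponded to between 0.182 and 0.488 CPM. CPM is the usual depth-scaled count, here divided by library total and a TMM factor, and all errors of CPM are SD with n = 3. Twist1 itself averaged 8.11 ± 0.79 CPM in parental samples, 5.07 ± 0.63 without and 613.0 ± 31.6 with doxycycline in the monomer line, 182.3 ± 16.6 with the homodimer, and 39.4 to 55.2 in the 3 heterodimer groups. Tcf4 was 2.80 higher (log2) in the TCF4 line than in the parental line (edgeR adjusted p 2.2e-10). Tcf3 did not pass in the TCF3-labelled libraries (log2 difference -0.12, edgeR adjusted p 0.24). For Tcf12 in the TCF12-labelled libraries the log2 difference was 0.50 (edgeR adjusted p 0.055), and it passed in the TCF3-labelled ones (0.66), which stood at 104 CPM against 93.1. These groups are therefore named by their labels. Sample 1 of the TCF12-labelled group stood apart, with a TMM factor of 0.865 against 1.02 in both other samples of its group, and results that rest on it are given with and without it. As many as 25 symbols had become dates in 18 of 21 tables and the 3 tables labelled TCF12 dimer kept them, so the handling of the tables and that group cannot be told apart. In bulk samples, fewer cells of a type and less RNA per cell cannot be told apart.

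The label of silence held for part of the group. Lax1 and Alb had 0 counts in all 3 parental libraries, which allows up to 0.327 CPM by the limit of 3 counts. Slc8a3, Tmem132c and Muc16 had at most 3 counts in each parental library, so that 5 of the 7 genes were at or under that limit. Cygb had up to 4 counts and Rftn2 up to 7 (parental means 0.282 ± 0.163 and 0.489 ± 0.249 CPM). In the parental line the 7 genes therefore ranged from undetected to low, and the last pair was not silent.

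**Figure D1:**
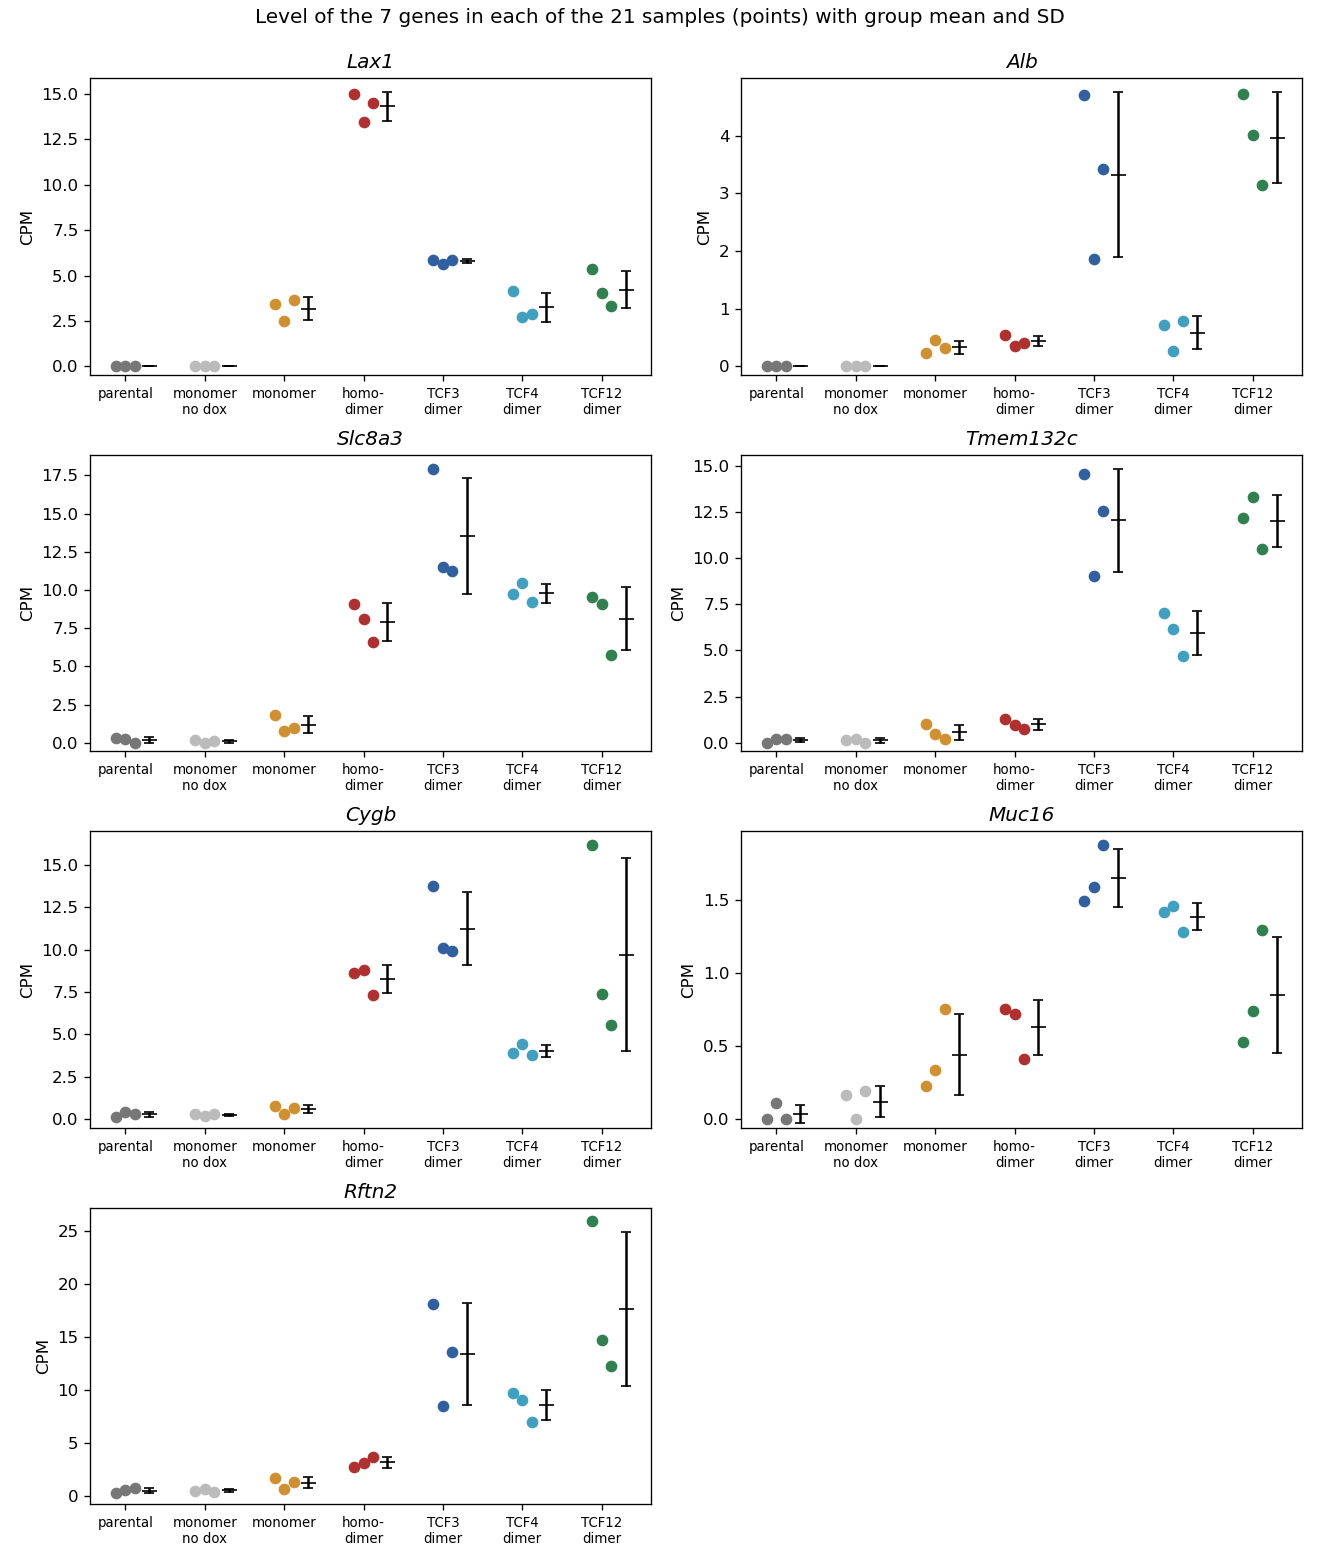
CPM of each of the 7 genes (one panel each, vertical axis in CPM) in the 21 samples, arranged by group on the horizontal axis; points are samples, and the dash with its bar is the group mean with SD. The parental and uninduced monomer samples lie at or near 0 in every panel, Lax1 is highest in the homodimer line (13.5 to 15.0 CPM), and Alb and Tmem132c are highest in the TCF3- and TCF12-labelled libraries.

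Lax1 (GRCm38 chr1:133679091-133690108, minus strand) was highest in the homodimer line. No read was counted in any of the 6 parental and uninduced monomer libraries. In the induced monomer line the samples stood at 3.41, 2.48 and 3.65 CPM. The homodimer samples stood at 15.0, 13.5 and 14.5 CPM. The gene was thus detected with every induced TWIST1 construct. The TCF3-labelled libraries gave 5.87, 5.65 and 5.86 CPM, the TCF4 line 4.17, 2.74 and 2.86 CPM, and the TCF12-labelled libraries 5.35, 4.02 and 3.31 CPM. All homodimer samples lay above every heterodimer sample. The TCF4 samples and the TCF12-labelled ones overlapped the induced monomer samples. Against the limit of 3 counts in a parental library, Lax1 was at least 43.8-fold higher in the homodimer line, 17.7-fold in the TCF3-labelled libraries, 9.95-fold in the TCF4 line and 12.9-fold in the TCF12-labelled libraries, and these are the values that chose it.

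Rftn2 (chr1:55170159-55226782, minus strand) showed another order. Its parental samples stood at 0.218, 0.542 and 0.706 CPM, the uninduced monomer samples at 0.488, 0.627 and 0.391, and the induced monomer samples at 1.71, 0.675 and 1.29. The homodimer samples reached 2.70, 3.05 and 3.70 CPM. Induced monomer and parental samples overlapped, and the homodimer samples lay above both. In the TCF4 line they were 9.67, 9.07 and 7.0 CPM, and in the TCF3-labelled libraries 18.1, 8.47 and 13.6. The TCF12-labelled libraries gave 25.9, 14.7 and 12.3 CPM, the first being the sample that stands apart. All heterodimer samples lay above all homodimer samples, whereas the heterodimer groups labelled TCF3 and TCF4 overlapped. Without sample 1 the mean of the TCF12-labelled libraries was 13.5 CPM in place of 17.6, close to the 13.4 ± 4.8 CPM of the TCF3-labelled ones. An antisense gene, Gm10561, shares 500 exonic bases with Rftn2 and moved with it, from a parental 0.0336 CPM to 0.269 with the homodimer and 0.739 to 1.31 in the heterodimer groups. Whether the counting used strand is not given in the sources used here, so reads from the shared bases cannot be told apart.

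Slc8a3 (chr12:81197915-81333180, minus strand) was the most even of the 7 across dimers, with the highest dimer mean 1.71 times the lowest. The parental samples held 3, 2 and 0 counts and the uninduced monomer samples 1, 0 and 1. The induced monomer samples stood at 1.82, 0.788 and 0.967 CPM. All induced monomer samples lay above all of the former 6. Homodimer values were 9.07, 8.08 and 6.59 CPM, and TCF4 values 9.75, 10.4 and 9.18. The TCF3-labelled libraries gave 17.9, 11.5 and 11.2 CPM and the TCF12-labelled ones 9.55, 9.11 and 5.73. All TCF3-labelled samples lay above all samples of the other dimers, and the TCF12-labelled ones overlapped both the homodimer and the TCF4 samples. The mean was 43.6-fold the parental mean in the homodimer line, 74.7-fold in the TCF3-labelled libraries, 54.0-fold in the TCF4 line and 44.8-fold in the TCF12-labelled ones, over a parental mean of 0.181 ± 0.166 CPM that rests on 5 counts.

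Tmem132c (chr5:127241808-127565793, plus strand) had the widest range over dimers, 12-fold between the highest and the lowest mean. Its counts were 0, 2 and 2 in the parental libraries and 1, 2 and 0 in the uninduced monomer libraries. The induced monomer samples stood at 1.02, 0.450 and 0.215 CPM and the homodimer samples at 1.30, 0.987 and 0.720. The induced monomer samples overlapped both the parental and the homodimer samples. The TCF4 samples gave 7.0, 6.16 and 4.68 CPM. The TCF3-labelled libraries gave 14.5, 9.0 and 12.5 CPM and the TCF12-labelled ones 12.2, 13.3 and 10.5. Homodimer, TCF4 and the remaining heterodimer samples did not overlap each other, while those labelled TCF3 and TCF12 did. Over the parental mean the homodimer was 7.17-fold higher, the TCF4 dimer 42.6-fold, and the TCF3- and TCF12-labelled libraries 86.2-fold and 85.9-fold.

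Alb (chr5:90460897-90476602, plus strand) was undetected in the 6 parental and uninduced libraries. The induced monomer libraries held 2, 4 and 3 counts and the homodimer libraries 5, 4 and 4 (0.540, 0.359 and 0.412 CPM). Both groups were near the limit of 3 counts. The TCF4 libraries held 9, 3 and 13 counts (0.708, 0.257 and 0.791 CPM). The TCF3-labelled libraries gave 4.71, 1.85 and 3.42 CPM and the TCF12-labelled ones 4.72, 4.02 and 3.15. Every sample of the last 2 groups lay above every other sample, while monomer, homodimer and TCF4 samples overlapped. By the limit of 3 counts in a parental library the rise was at least 1.34-fold in the homodimer line and 1.79-fold in the TCF4 line, against at least 10.2-fold and 12.1-fold in the TCF3- and TCF12-labelled libraries.

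Muc16 (chr9:18495455-18674530, minus strand) stayed low everywhere, with no library above 23 counts over 26350 exonic bases. Its parental libraries held 0, 1 and 0 counts and its uninduced monomer libraries 1, 0 and 2. The induced monomer libraries held 2, 3 and 7 counts, the homodimer libraries 7, 8 and 4. These counts are too few to order the groups. The TCF3-labelled libraries held 18, 18 and 23 counts (1.49, 1.59 and 1.87 CPM), and the TCF4 libraries 18, 17 and 21 (1.42, 1.45 and 1.28 CPM). The TCF12-labelled libraries held 5, 9 and 16 counts (0.525, 0.738 and 1.29 CPM), so this group reached from the homodimer range up to the TCF4 range. The 3 parental libraries together held 1 count, so no ratio of means is given.

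Cygb (chr11:116645595-116654313, minus strand) was high with the homodimer and lowest, among dimers, with TCF4. The parental samples stood at 0.109, 0.434 and 0.303 CPM, the uninduced monomer samples at 0.325, 0.209 and 0.293, and the induced monomer samples at 0.797, 0.338 and 0.645. Homodimer samples reached 8.63, 8.80 and 7.31 CPM and TCF4 samples 3.93, 4.45 and 3.77. No TCF4 sample reached any sample of the other dimers. The TCF3-labelled libraries gave 13.7, 10.1 and 9.92 CPM. The TCF12-labelled ones gave 16.2, 7.38 and 5.57 CPM, with the sample that stands apart as the highest of all 21. Without it their mean was 6.48 CPM in place of 9.70, below the homodimer mean of 8.25. Over the parental mean the ratios were 29.3, 39.9, 14.4 and 34.4 in the homodimer, TCF3, TCF4 and TCF12 groups. Prcd, a gene on the opposite strand listed in the files under its older symbol Gm11744, shares 201 exonic bases with Cygb. It stood at 0.784 CPM in the parental line, 5.80 in the homodimer line, 6.61 and 3.37 in the TCF3 and TCF4 groups and 7.14 in the TCF12-labelled libraries, and the part that shared bases play in either gene's value was not tested.

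Measured per kilobase of exon, which allows genes to be compared, the order of the members differed between groups. Lax1 led in the induced monomer line (1.38 ± 0.27 CPM per kb) and in the homodimer line (6.20 ± 0.34). Cygb led in the TCF3-labelled libraries (4.82 ± 0.92) and in the TCF12-labelled ones (4.16 ± 2.43), and Slc8a3 in the TCF4 line (1.84 ± 0.12), closely followed by Cygb (1.74 ± 0.15). The per-kb levels of Slc8a3 and Cygb in the TCF4 line did not differ beyond their spread. Muc16 was lowest in all 5 induced TWIST1 groups, between 0.0167 and 0.0626 CPM per kb.

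The comparison of the induced with the uninduced monomer line asks what doxycycline does to these genes in cells that carry a single TWIST1 sequence. Neither group had a part in the choice of the members. Apart from Lax1, the members passed the filter on low counts through the dimer groups and were not tested in a fit of these 2 groups alone, so counts of members are given as a description. All 3 induced samples lay above all 3 uninduced samples for 7 of the 7 genes (10.9% of the 14311 genes tested). Some of these margins were within counting error. In Tmem132c, Muc16 and Rftn2 the lowest induced and highest uninduced samples held equal counts (2, 2 and 6), parted only by the scaling to depth. In Cygb they stood at 0.338 and 0.325 CPM, from 3 and 2 counts. By the edgeR quasi-likelihood test with Benjamini-Hochberg adjustment over all tested genes and a threshold of 0.05, 2 of the 7 genes were higher (1.52% of the genes tested), and in the fit of these 2 groups alone 1 was, Lax1. Lax1 rose from 0 counts to 3.18 ± 0.62 CPM (edgeR adjusted p 5.7e-06), with 22 to 34 counts per library. Slc8a3 rose from 0.0868 ± 0.0819 to 1.19 ± 0.55 CPM (log2 fold change 3.75 ± 0.84 SE, edgeR adjusted p 0.021). That call was lost when any of the 3 uninduced samples or induced sample 1 was left out (edgeR adjusted p 0.052 to 0.13). The other 5 genes did not pass: for Tmem132c the log2 difference was 2.16 ± 0.88 SE, for Muc16 1.84 ± 0.76, for Rftn2 1.27 ± 0.68 and for Cygb 1.10 ± 0.84, with edgeR adjusted p from 0.37 to 0.87. Alb went from 0 counts in all 3 libraries to 2 to 4 counts (edgeR adjusted p 0.19).

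Against the parental line, whose samples also served the choice of the members, 4 of the 7 genes were higher in the induced monomer line (10.8% of all genes tested were). These were Lax1 (edgeR adjusted p 5.2e-07), Slc8a3 (0.0089), Muc16 (0.015) and Alb (0.035). In a fit of these 2 groups alone, only Lax1 passed the filter, and it was higher. Alb lost the call without any 1 of the 3 parental samples or induced samples 2 or 3, and Muc16 without parental samples 1 or 3 or induced sample 3. Slc8a3 lost it without induced sample 1. The uninduced monomer line did not pass for any of the 7 genes against the parental line, where 10.5% of all genes tested were higher. At an unadjusted p under 0.05 the edgeR count was 0 of 7, and DESeq2 called 0 of 7. These groups differ both in doxycycline and in the integrated sequence, which cannot be told apart.

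In all 4 dimer lines the 7 genes passed as higher than in the parental line, which is how they were chosen and is given as a description. Over all genes tested the shares higher were 4.81% for the homodimer, 16.3% and 15.5% for the TCF3- and TCF12-labelled libraries, and 7.18% for the TCF4 dimer. Against the uninduced monomer line, which shares the dimer samples with the choice, all 7 genes were also higher in all 4 dimer lines, where 1602 (homodimer), 2247 (TCF3), 2405 (TCF4) and 2863 (TCF12) of 14311 genes were.

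**Figure D2:**
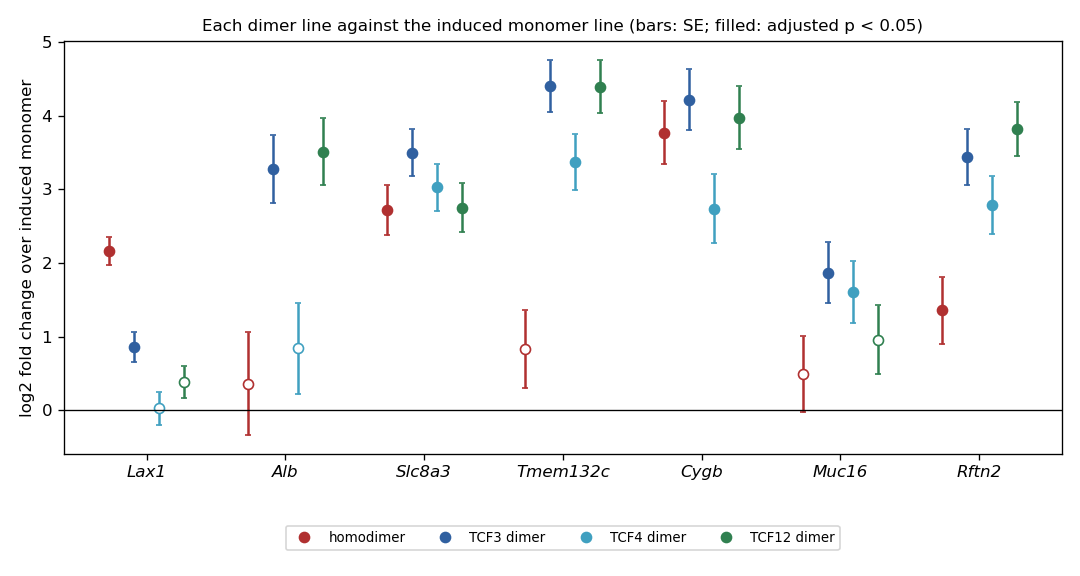
Log2 fold change (vertical axis, with SE bars) of each of the 7 genes in the 4 dimer lines against the induced monomer line; filled points have an edgeR adjusted p under 0.05, open points do not. Lax1 stands above the monomer mainly in the homodimer line (2.16), whereas Alb, Tmem132c, Muc16 and Rftn2 are closest to the monomer in the homodimer line.

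The dimer lines were set against the induced monomer line as a description, since the dimer samples had served the choice. Those samples also carried all members but Lax1 past the filter on low counts. Counts of members here and in the next paragraph therefore partly repeat the choice. The induced monomer had the highest Twist1 level of all groups, 613.0 CPM, and its mean of each of the 7 genes was below that of each dimer line. Whether Twist1 counts compare across constructs was not tested, nor was the part of Twist1 level in these values. For Lax1 the margin over the monomer line (3.18 ± 0.62 CPM) was within the spread of the samples in the TCF4 line (3.25 ± 0.79 CPM), with a 95% interval of -0.40 to 0.46 for the log2 difference. In all, 4 genes were higher in the homodimer line, against 9.15% of all genes tested. These were Cygb (log2 fold change 3.77 ± 0.43 SE), Slc8a3 (2.72 ± 0.34), Lax1 (2.16 ± 0.19) and Rftn2 (1.36 ± 0.46). The call for Rftn2 (edgeR adjusted p 0.044) was lost in 10 of 21 fits that left out 1 sample. Alb, Tmem132c and Muc16 did not pass there, at log2 differences of 0.36, 0.83 and 0.49.

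Also as a description, all 7 genes were higher in the TCF3-labelled libraries than in the monomer line, where 12.7% of all genes were. Tmem132c led with a log2 fold change of 4.41 ± 0.35 SE and Lax1 came last with 0.86 ± 0.21 (edgeR adjusted p 5.2e-08 and 0.0074). In the TCF4 line 5 of the 7 genes were higher (14.5% of all genes), all but Lax1 and Alb, with Tmem132c at 3.38 ± 0.38 and Slc8a3 at 3.03 ± 0.32. In the TCF12-labelled libraries 5 of the 7 were higher (18.1% of all genes), all but Lax1 (0.39 ± 0.22) and Muc16 (0.96 ± 0.47). Without sample 1 of that group, Muc16 passed as well (1.18, edgeR adjusted p 0.049).

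Differences between the 4 dimer groups were tested, a contrast that had no part in the choice although its samples did. The same dimer samples carried all members but Lax1 past the filter on low counts. Counts of members in all comparisons between dimer groups, here and below, are therefore a description. These groups differ in the labelled partner, in Twist1 level and in cell line, which cannot be told apart. The 4 dimer means were unequal for 7 of the 7 genes, against 31.9% of all genes tested. The edgeR adjusted p was 2.1e-07 for Tmem132c, 1.2e-06 for Lax1, 2.4e-05 for Alb, 4.2e-05 for Rftn2, 0.0029 for Cygb, 0.025 for Muc16 and 0.034 for Slc8a3. Without sample 1 of the TCF12-labelled group all 7 still passed. Muc16 lost the call without homodimer samples 2 or 3 or samples 2 or 3 of the TCF3-labelled group, and Slc8a3 without homodimer samples 2 or 3 or sample 1 of the TCF3-labelled group (edgeR adjusted p up to 0.20). In a fit of the 4 dimer groups alone the edgeR adjusted p of Slc8a3 was 0.071.

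**Figure D3:**
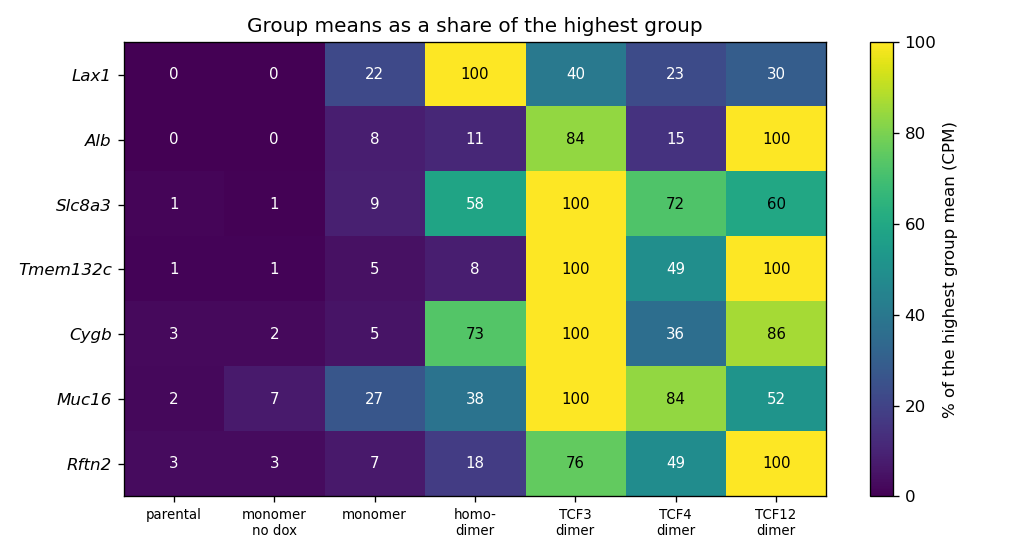
Group mean of each gene (rows) in each group (columns) as a percentage of that gene's highest group mean in CPM, colour scale from 0 to 100%. The homodimer column holds 100% for Lax1, 11% for Alb, 8.32% for Tmem132c and 17.9% for Rftn2, while Cygb and Slc8a3 reach 73.4% and 58.4% there.

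The 3 heterodimer groups together were set against the homodimer. Here 3 of the 7 genes were higher with the heterodimers, against 7.99% of all genes tested. These were Tmem132c (log2 fold change 3.23 ± 0.29 SE, edgeR adjusted p 2.4e-07), Alb (2.18 ± 0.42, edgeR adjusted p 0.0021) and Rftn2 (1.99 ± 0.28, edgeR adjusted p 5.2e-05). For Alb the TCF4 samples (0.585 ± 0.287 CPM) overlapped the homodimer samples (0.437 ± 0.093 CPM). Lax1 went the other way and was lower with the heterodimers (-1.74 ± 0.14 SE, edgeR adjusted p 4.9e-07), with no overlap between the 3 homodimer and the 9 heterodimer samples. Slc8a3 (0.37, 95% interval -0.02 to 0.76), Cygb (-0.13, -0.57 to 0.31) and Muc16 (0.98, 0.32 to 1.64, edgeR adjusted p 0.059) did not pass. Without sample 1 of the TCF12-labelled group Muc16 passed (edgeR adjusted p 0.016).

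Among the heterodimers, the TCF3-labelled libraries exceeded the TCF4 line in 4 of the 7 genes, where 19.7% of all genes tested differed in either direction. The log2 fold changes were 2.44 ± 0.37 SE for Alb, 1.48 ± 0.28 for Cygb, 1.03 ± 0.23 for Tmem132c and 0.83 ± 0.19 for Lax1 (edgeR adjusted p 0.00028, 0.00085, 0.0030 and 0.0067). Rftn2 (0.65, edgeR adjusted p 0.098), Slc8a3 (0.47, 0.15) and Muc16 (0.26, 0.62) did not pass, and without sample 1 of the TCF12-labelled group Rftn2 and Slc8a3 passed (edgeR adjusted p 0.0038 and 0.026).

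The TCF12-labelled libraries exceeded the TCF4 line in 4 of the 7 genes, against 3.24% of all genes tested in either direction. Alb had a log2 fold change of 2.67 ± 0.36 SE, Cygb 1.24 ± 0.28, Rftn2 1.03 ± 0.27 and Tmem132c 1.02 ± 0.23 (edgeR adjusted p 0.0021, 0.026, 0.040 and 0.022). Without sample 1 of the TCF12 group the same 4 genes passed, with smaller differences for Cygb (0.68) and Rftn2 (0.66). In a fit of these 2 groups alone, 0 of the 7 genes passed and 0 genes in all, with edgeR adjusted p of 0.25 for Alb and 0.63 for Cygb. Rftn2 lost its call in 13 of 21 fits that left out 1 sample, Cygb in 3 and Tmem132c in 2.

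Between the TCF3- and TCF12-labelled libraries, only Slc8a3 passed, against 18.8% of all genes tested. It was higher in the TCF3-labelled ones (log2 fold change 0.75 ± 0.23 SE, edgeR adjusted p 0.031), a call lost without sample 1 of the TCF3-labelled group (edgeR adjusted p 0.15) or sample 3 of the TCF12-labelled group (0.059), and in a fit of these 2 groups alone (0.32), where 0 of the 7 genes passed. For Tmem132c the log2 difference was 0.01 with a 95% interval of -0.42 to 0.43, and for Alb -0.23 with -0.79 to 0.32. Without sample 1 of the TCF12-labelled group, Lax1 (0.65, edgeR adjusted p 0.013) and Cygb (0.79, edgeR adjusted p 0.00056) passed too, so 3 genes did in place of 1.

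Patterns over the 21 samples were compared on log2(CPM + 0.5), as a description, since the samples share their groups. The closest pair among the members was Tmem132c with Rftn2 (Pearson r 0.973, n = 21 samples), followed by Slc8a3 with Cygb (0.950). Lax1 was the least like the others, with r of 0.579 with Tmem132c and 0.586 with Alb. The gene outside the group with the most similar pattern was App for Lax1 (r 0.968), Vim for Alb (0.957), Boc for Slc8a3 (0.97), Fli1 for Tmem132c (0.978), Anxa6 for Cygb (0.961), Pygb for Muc16 (0.948) and Id4 for Rftn2 (0.979). App, the amyloid precursor, stood at 58.4 CPM in parental and 108.9 CPM in homodimer samples, a far smaller relative difference than that of Lax1. Fli1, an ETS transcription factor, stood at 0.243 CPM in the parental line, 0.694 in the homodimer line and 3.19 to 5.21 in the heterodimer groups. Id4, a helix-loop-helix protein without a DNA-binding region, stood at 3.07 CPM in the parental line, 7.52 in the homodimer line and 15.2 to 29.5 in the heterodimer groups. Vim, the intermediate filament vimentin, went from a parental 96.4 CPM to 108.8 with the homodimer, 142.1 with TCF4, and 247.2 and 276.4 in the TCF3- and TCF12-labelled libraries. The 10 genes closest to the mean standardised pattern of the 7 were Pknox2 (r 0.983), Pdcd4, Plxna2, Kank4, Dnm1, Cbfa2t3, Lcp1, Fzd1, Fbln5 and Mex3b (0.968).

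The members came from a small set of comparable genes. Of 324 genes higher in all 4 dimer lines than in the parental line, 37 had a parental mean under 0.5 CPM, and 28 of these also had a log2 fold change of at least 2 in every dimer line. All 7 members were among the 28. Ordered by the smallest of the 4 log2 fold changes, Lax1 was in place 1 (8.11), Slc8a3 in place 6 (5.39), Alb 7 (5.23), Cygb 9 (3.78), Muc16 10 (3.77), Tmem132c 18 (2.72) and Rftn2 20 (2.65). Those of Lax1 and Alb depend on the small count that edgeR adds, since their parental counts were 0, and that of Muc16 rests on 1 parental count. Just inside the limit of 2 were Tmem200b (2.10), B3gnt9 (2.10) and Pax3 (2.03), and just outside Gm22 (1.98), Pcdh11x (1.94) and Plxna4 (1.93).

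**Figure D4:**
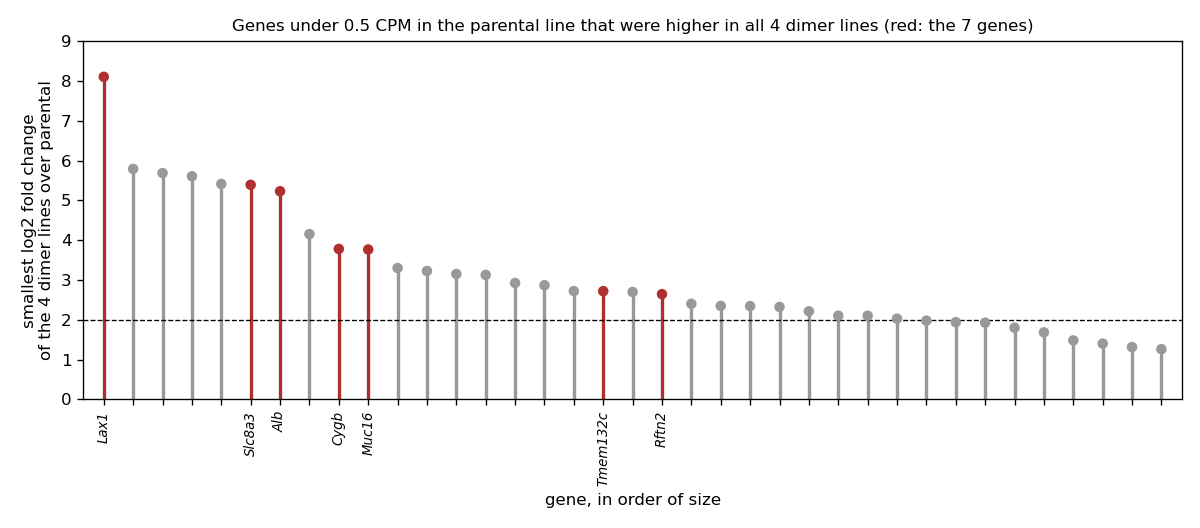
Smallest of the 4 log2 fold changes over the parental line (vertical axis) for the 37 genes with a parental mean under 0.5 CPM that were higher in all 4 dimer lines, in order of size; the 7 genes are in red and named on the axis, and the dashed line marks a log2 fold change of 2. Lax1 stands first at 8.11, and Tmem132c and Rftn2 stand at 2.72 and 2.65.

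Relatives and pathway partners of each member were read from lists by symbol. The median log2 fold change over the tested genes lay, across the 4 dimer lines, between 0.01 and 0.28 for lymphocyte adaptors, -0.01 and 0.10 for raft genes, -0.05 and 0.10 for calcium transport, -0.44 and 0.30 for the TMEM132 family, -0.98 and 0.20 for mucins, -0.59 and 0.12 for plasma proteins and 0.20 and 1.43 for the 2 tested globins. Over all genes tested it was between 0.00 and 0.02. Around Lax1, 16 genes of lymphocyte adaptors and antigen receptor signalling were listed and 10 tested. Over the parental line 2 were higher in the homodimer line, 4 higher and 2 lower in the TCF3-labelled libraries, 2 higher in the TCF4 line, and 3 higher and 1 lower in the TCF12-labelled ones. Pag1, a raft adaptor that recruits the kinase Csk, was higher in all 4 (log2 fold change 1.34 to 2.32), but also in the uninduced monomer line (1.46, edgeR adjusted p 0.00037). Lat, the adaptor of T cell activation, was 1.88 higher (log2) in the homodimer line, where it stood at 7.48 CPM (parental mean 2.02), and also higher in the TCF3-labelled (0.93) and TCF12-labelled libraries (1.16) and in the uninduced monomer line (1.04). Lck, a T cell kinase, was lower in the TCF3-labelled libraries (-0.82) and in the TCF12-labelled ones (-0.48). Fyn, a kinase of the Src family, was the one gene of the list that rose in the induced over the uninduced monomer line (0.29 ± 0.07 SE, edgeR adjusted p 0.046). Markers of lymphocytes and leukocytes overlapped between parental and homodimer samples. Their sum over 10 genes was 19.8 to 25.8 CPM in the parental samples and 24.4 to 28.3 CPM in the homodimer samples. Cd3g was at 0 in all groups, Ptprc, the pan-leukocyte antigen CD45, had at most 3 counts in any library, and most of the sum came from Coro1a and Laptm5 (group means of 13.2 to 22.8 and 2.60 to 12.3 CPM).

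Around Rftn2, 6 of 10 listed genes of raftlin, flotillins and caveolae were in the files and 5 were tested. Rftn1, the closest relative, was lower in all 4 dimer lines (log2 fold change -0.54 to -0.80 over parental) and with the uninduced monomer (-1.23, edgeR adjusted p 9.4e-06), opposite to Rftn2 in the dimers. Flot1, a flotillin of lipid rafts, was higher in all 4 dimer lines (0.77 to 1.06), and Cav2 was lower in the TCF3- and TCF12-labelled libraries (-0.96 in each). None of the 5 passed between the induced and uninduced monomer lines by edgeR.

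Around Slc8a3, 15 genes of sodium-calcium exchange and calcium export were listed and 11 tested. None was higher in the homodimer line and 1 was lower, Slc8a2 (-0.65). In the TCF3-labelled libraries 4 were higher, in the TCF4 line 1, and in the TCF12-labelled ones 2, with 1 lower. Atp2b4, a calcium pump of the plasma membrane, was higher in all 3 heterodimer groups (0.89 to 1.22), from a parental 3.45 CPM to 6.45 to 8.08 CPM. Slc24a3, a potassium-dependent exchanger, was higher in the TCF3-labelled libraries (1.86) but also in the uninduced monomer line (1.82). Slc8a1, the exchanger of heart muscle, averaged 2.04 CPM in parental samples and 0.897 to 1.33 CPM in the dimer lines and passed in none.

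In the TMEM132 family 3 of 4 listed relatives were tested. Tmem132e was higher in the 3 heterodimer groups (log2 fold change 1.04 to 1.47 over the parental line) and did not pass in the homodimer line (-0.42), and it was lower in the uninduced monomer line (-1.92, edgeR adjusted p 0.0014). Tmem132a, the most abundant relative at 82.4 CPM in the parental line, was lower in the TCF3-labelled libraries (-0.44) and in the uninduced monomer line (-0.43). Tmem132d passed in none. Among 9 listed globins only Ngb and Mb could be tested. Mb, myoglobin, was higher in the TCF12-labelled libraries, at 1.22 CPM over a parental mean of 0.142 (log2 fold change 2.94, edgeR adjusted p 0.011), and the haemoglobin genes had at most 4 counts in any library.

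Among 14 listed mucins and sialomucins, 4 were tested and none was higher in any dimer line. Muc13, a mucin of gut epithelium, was lower in the TCF4 line (-1.06) and the TCF12-labelled libraries (-1.37), and Muc3a in the latter (-1.82). Mcam, a cell adhesion molecule, fell in the induced against the uninduced monomer line (-0.63 ± 0.15 SE, edgeR adjusted p 0.034). Markers of mesothelium, a tissue known for Muc16, were mixed. Msln had at most 3 counts in any library, Lrrn4 was lower in all 4 dimer lines (-0.76 to -1.26), and Wt1 was higher in all 4 (2.04 to 2.18), but also in the uninduced monomer line (1.41), and rose in the induced over the uninduced monomer line (0.89 ± 0.11 SE, edgeR adjusted p 1e-04). The sum over the 6 markers was 46.4 to 48.3 CPM in the parental samples and 43.3 to 46.8 CPM in the TCF3-labelled samples, where Muc16 was highest.

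Around Alb, 21 plasma protein genes of liver and visceral endoderm were listed and 10 tested. None was higher in the homodimer or TCF4 line or in the TCF12-labelled libraries. Lower were 2 in the TCF3-labelled libraries, 4 in the TCF4 line and 3 in the TCF12-labelled libraries. In the TCF3-labelled ones 2 were higher, Cubn (1.39) and Amn (1.30), the subunits of an endocytic receptor of visceral endoderm. Apob and Ttr, carriers of lipid and of thyroid hormone, were lower in the 3 heterodimer groups (-0.87 to -1.43 and -0.77 to -1.27). Afp, the fetal counterpart of albumin, had at most 12 counts in any library and was not tested. The 12 markers of visceral or primitive endoderm summed to 351 to 391 CPM in the parental samples. In the TCF3-labelled samples their sum was 637 to 913 CPM, and in the TCF12-labelled ones 158 to 184 CPM. Alb averaged 3.33 ± 1.43 CPM in the former and 3.96 ± 0.79 CPM in the latter. It had no counts in the parental or the uninduced monomer samples, and the markers summed to 1352 to 1702 CPM in the uninduced ones. Hepatocyte markers summed to 3.97 to 4.64 CPM and 3.67 to 5.00 CPM in the TCF3- and TCF12-labelled samples against 6.32 to 7.48 CPM in the parental samples, and Cyp3a11, Tat and Tdo2 had at most 1 count in any library.

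Of 6 markers of stellate cells and pericytes, where Cygb is known, 4 were tested, and over the parental line 1 was higher in the TCF3-labelled libraries, 1 in the TCF4 line, 3 in the TCF12-labelled libraries and none in the homodimer line. Their sum was 16.5 to 19.4 CPM in the parental samples and 16.9 to 17.3 CPM in the homodimer samples, where Cygb stood at 8.25 CPM. It was 34.0 to 47.4 CPM in the TCF3-labelled samples, 26.9 to 31.9 CPM in the TCF4 samples and 45.4 to 53.2 CPM in the TCF12-labelled ones. Pdgfrb, a growth factor receptor of mesenchymal cells, was the only one of the list higher in all 3 heterodimer groups (1.43 to 2.05), while Lrat and Rgs5 had at most 6 counts in any library. Markers of pluripotent cells and primitive streak, which the labelled day 3 embryoid body should hold, were present in all groups, with a sum of 4350 to 4462 CPM in the parental samples and 2375 to 2694 CPM in the TCF3-labelled ones. The part of cell composition in the values of the 7 genes was not tested.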

How the data were processed

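RNA was measured by sequencing of libraries made with a TruSeq mRNA kit, per the labels' protocols, in 21 samples of 7 groups. The deposited files hold whole-number counts per gene symbol and sample, made by the authors with TopHat2 and HTSeq on mm10/GRCm38 after FastQC, per the submitters' processing notes. Versions, annotation and strand setting are not given in the sources used here. No totals or unassigned reads entered the library sizes. The 7 members and all gene lists were chosen with earlier results of these data known, and the named genes are the members, the genes just inside and outside the screen, the closest pattern for each member and the 10 closest to their mean, and listed genes that passed a test.

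Genes were filtered with filterByExpr in edgeR 4.0.16 (minimum count 10, minimum total 15), which kept 14311 of 48321 symbols (29.6%). One fit over all 21 samples with TMM factors and the quasi-likelihood test (R 4.3.3, limma 3.58.1) gave 12 comparisons, each with Benjamini-Hochberg adjustment over all tested genes at 0.05. SE was the absolute log2 fold change over the square root of the F statistic, and 95% intervals used the normal quantile. These intervals can be narrower than the F-test implies. Depth sets the precision: 3 counts in a library equal 0.182 to 0.488 CPM, and such limits cover counting error only. Lengths, positions and antisense overlaps came from GENCODE M21 (GRCm38). Data were simulated for the induced against the uninduced monomer line over 14311 genes. Of 100 genes changed 2-fold 86 were called, and of 100 changed 4-fold 98, with 8 of 14111 unchanged genes. The changed genes were drawn only from those above 0.5 CPM in the uninduced monomer line. Lax1, Alb, Slc8a3, Tmem132c, Cygb and Muc16 were below that level there, so these rates do not cover them. Alternatives were RLE factors, library size only, other filters, a replicate block, only the groups compared, DESeq2 1.42.0, other limits of the screen, and leaving out each sample.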

Additional observations from a re-analysis of the deposited data

Results flagged for a closer look

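The size of the rise over the parental line differed between the 4 dimer lines for each of the 7 genes, by the edgeR test of equal dimer means, adjusted over all genes tested. Such a difference was also called for 31.9% of all genes tested. The dimer samples compared had served the choice and had carried all members but Lax1 past the filter on low counts. The edgeR adjusted p was 2.1e-07 for Tmem132c, 2.4e-05 for Alb and 4.2e-05 for Rftn2. These 3 had their lowest dimer mean in the homodimer line and did not pass between the TCF3- and TCF12-labelled libraries, whose order for Tmem132c changed between settings. For Lax1 it was 1.2e-06, with the homodimer line highest. Cygb (0.0029) had its lowest dimer mean in the TCF4 line. Muc16 (0.025) and Slc8a3 (0.034) had the smallest spans of log2 values between the highest and the lowest line, 1.37 and 0.78. Both also had their lowest dimer mean in the homodimer line. Of 21 fits that left out 1 sample, Muc16 lost the call in 4 and Slc8a3 in 3.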

How the results depend on the processing

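Over all alternatives, 2232 values of single genes kept their direction and side of the threshold, 57 lost and 14 gained a call, and 25 changed sign; the cause of these changes was not tested. Depth limits the comparisons with the parental line, where no parental library held more than 7 counts of any of the 7 genes. Where 1 sample was left out, the numbers of genes that passed were 131 to 517 for the induced against the uninduced monomer, 1186 to 2611 for the induced monomer against parental, 1098 to 2699 for the uninduced monomer against parental, 3437 to 7691 among the 4 dimers, 707 to 2117 for heterodimers against homodimer, 1959 to 5828 for TCF3 against TCF4, 49 to 4868 for TCF12 against TCF4, and 1455 to 4986 for TCF3 against TCF12. Against the monomer the ranges were 980 to 2496 for the homodimer, 1363 to 2930 for TCF3 and 1617 to 3462 for TCF4. Among the 4 dimers and between heterodimer groups, these counts hold genes that differed in either direction. In all other comparisons they hold only genes that were higher. The number of the 7 genes that passed ranged from 1 to 2 for the induced against the uninduced monomer, 2 to 4 for the induced monomer against parental, 1 to 5 for TCF12 against TCF4 and 0 to 3 for TCF3 against TCF12.

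With only the groups compared in the fit, 1 of the 7 genes passed for the induced monomer against either control, and 0 for TCF12 against TCF4 or TCF3 against TCF12. Lax1 was then the only member above the filter for the induced monomer against either control. The genes that passed were 437 for the induced against the uninduced monomer, 2638 and 2557 for induced and uninduced monomer against parental, 2465 among the 4 dimers, 754 for heterodimers against homodimer, 5660 for TCF3 against TCF4, 0 for TCF12 against TCF4 and 236 for TCF3 against TCF12. Against the monomer they were 2368, 3001, 3197 and 745 for the homodimer, TCF3, TCF4 and TCF12. As above, only the counts among dimers and between heterodimer groups hold both directions, apart from heterodimers against homodimer. For TCF12 against TCF4, 306 genes passed with library size only, 1443 with no filter and 901 with DESeq2, and 2 of the 7 genes passed for TCF3 against TCF12 with library size only. The screen of all genes held 28 genes and 7 members, and 14 genes with 5 members at a log2 fold change of at least 3. With a parental mean under 0.25 CPM it held 20 genes and 5 members, and with both limits 9 genes and 4 members. With a log2 fold change of at least 1 and a parental mean under 1 CPM it held 52 genes and 7 members.

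Signs changed only for log2 differences that passed no test in the fit over all samples. Leaving out 1 sample gave -1.07 to 0.40 for Tmem132c, -0.42 to 0.34 for Cygb and -0.32 to 0.38 for Rftn2 in the uninduced monomer against parental, and -0.19 to 0.15 for Lax1 in TCF4 against the monomer. For TCF3 against TCF12 it gave -0.12 to 0.17 for Tmem132c, -0.54 to 0.037 for Alb and -0.017 to 0.79 for Cygb. Rftn2 was -0.047 (uninduced monomer against parental) with library size only, and Tmem132c 0.00 (TCF3 against TCF12) with only the groups compared. For the same comparison, a replicate block gave Tmem132c a value of -0.0029. The replicate block left the number of the 7 genes that passed at 2 for the induced against the uninduced monomer and at 4 for TCF12 against TCF4. Samples that share a number did not deviate together on average (mean correlation 0.0214 over 63 pairs, -0.0102 over 126 other pairs). This average cannot exclude a batch shared by some groups.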
